A study of Homo sapiens with 4 samples.

Results

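The mitochondrial ribosomal protein genes are the nuclear genes whose proteins, together with RNAs made inside mitochondria, form the ribosome of the mitochondrial matrix. Members were all protein-coding genes of the deposited table whose name starts with MRPL or MRPS followed by a digit. That gave 77 of the 16174 listed genes, 49 named for the large subunit (MRPL) and 28 for the small subunit (MRPS), on 21 chromosomes. Names alone decided membership, but the family was chosen with earlier results of these data known.

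RNA came from H9 cells, a widely used human embryonic stem cell line kept here in the primed state. All 4 libraries carry a doxycycline-inducible dCas9-BFP-KRAB, that is, a catalytically inactive Cas9 carrying the KRAB repressor for CRISPR interference, inserted by piggyBac transposition and kept under puromycin selection. The SNHG26 arm also received 4 pooled guides against the long non-coding RNA gene SNHG26, and the control arm received non-targeting guides. Cells were taken after 2 days or 3 days of doxycycline, so each arm has 2 libraries, 1 from each day. The question of the design is how repression of SNHG26 alters the transcriptome, and here it was put to the mitochondrial ribosomal protein genes. Amplified cDNA of poly(A) RNA was sequenced on a nanopore instrument, and levels were deposited as TPM, in which reads are set against a length before each library is brought to the same total. Where 4 values are given for a gene, they are in the order SNHG26 day 2, SNHG26 day 3, control day 2, control day 3.

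Mitochondrial DNA encodes a small set of respiratory chain subunits, and the mitochondrial ribosome is the only machine that translates them. Its RNAs and the messages it reads come from the mitochondrial genome, while every one of its proteins is translated in the cytosol from nuclear genes and imported. The proteins assemble on the RNAs with the help of GTPases, helicases and RNA-modifying enzymes. Primed stem cells are known for relying strongly on glycolysis while keeping an active respiratory chain.

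In outline, the genes had similar levels in all 4 libraries, and none passed the threshold between guide arms or between days. Their summed level was highest in the SNHG26 libraries and lowest in the control library of day 3. MRPS34 held a large part of the difference between arms, and 2 neighbouring families had higher sums in the SNHG26 libraries too. Among single genes, MRPS15 had the lowest unadjusted p between days in the main limma fit and MRPS26 the widest difference, both lower on day 3.

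The targeted gene, SNHG26, was at 0, 0.933, 2.98 and 4.03 TPM. Its level was lower in both SNHG26 libraries than in both controls, with a log2 difference of -1.69 (SE 0.58) and a limma adjusted p of 0.935. Depth recovered from the values was at most 947338 to 1220265 reads per library, and between 10603 and 11162 genes were above 0. Of 10 markers of primed pluripotent cells, 9 were in the table and 8 were above 0 in all libraries, led by POU5F1 at 1126 TPM, SOX2 at 264 TPM and DPPA4 at 243 TPM, with ZIC2 listed at 0 throughout. DPPA4 had 210, 183, 315 and 266 TPM, lower in both SNHG26 libraries than in both controls, with a log2 difference of -0.56 (SE 0.19, limma unadjusted p 0.0395, adjusted 0.935). The summed level of that list lay between 1681 and 1927 TPM. Markers of mesendoderm, neuroectoderm and amnion that were in the table (2 of 5, 1 of 3 and 1 of 3) had means below 1 TPM, with EOMES listed at 0 in all libraries. Of 3 fibroblast markers, THY1, which pluripotent cells also express, was at 63.9 TPM and COL1A1 at 3.64 TPM, and the list summed to 57.6 to 88.6 TPM with its top in the control library of day 3. The part of these cells in the results was not tested.

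Of the 77 genes, 76 were above 0 in every library and 74 reached the mean of 1 TPM required for testing. Over all 77, the median of the mean levels was 35.1 TPM, against 5.61 TPM for all 8274 genes tested. Levels spread widely, with 23 members above 100 TPM and 15 below 10 TPM, and the top 5 held 38.8% of the summed TPM of the family. MRPS34, a protein of the small subunit found only in mitochondria, was highest at 1345, 1536, 1200 and 1037 TPM. MRPS15, a small subunit protein with a bacterial counterpart, followed at 708, 465, 728 and 477 TPM. MRPL51, of the large subunit, was at 592, 529, 596 and 504 TPM. MRPS24 was at 581, 629, 509 and 495 TPM, and MRPL41, a mitochondria-specific large subunit protein, was at 528, 376, 415 and 466 TPM. Among these leaders, MRPS34 stood above the others in every library, while the ranges of MRPL51, MRPS24 and MRPL41 overlapped.

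At the other end, MRPS25 had a mean of 0.594 TPM, MRPS27, a pentatricopeptide repeat protein, 0.951 TPM, MRPL48 1.48 TPM, MRPL1 2.04 TPM and MRPS28 2.41 TPM. MRPL23 was listed at 0, 1.41, 0.867 and 0 TPM. It was the only member listed at 0 in any library, and with MRPS25 and MRPS27 it stayed below the mean needed for testing. About 1.25 estimated reads per library lay behind MRPL23 and 1.35 behind MRPS25. On the listed spans the values would come from at most 8.04 reads in any library for MRPL23 and 6.70 for MRPS25. Neither gene can be followed across conditions at this depth.

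**Figure D1:**
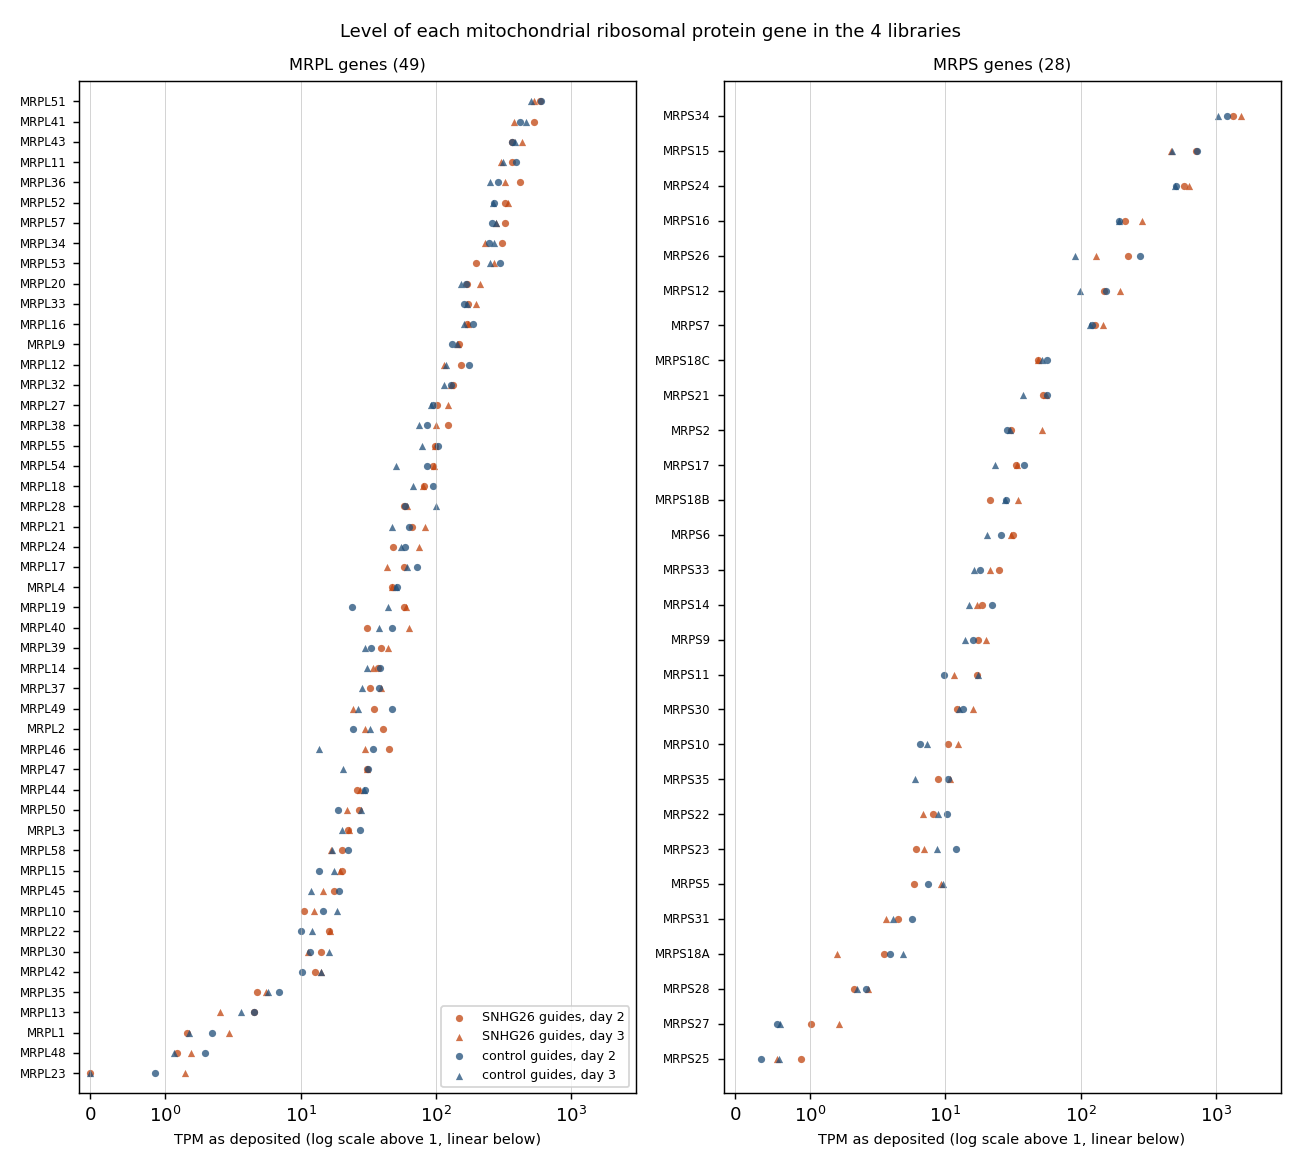
Level of each of the 77 genes in the 4 libraries, MRPL genes on the left and MRPS genes on the right, ordered by mean. The horizontal axis is TPM as deposited, logarithmic above 1 and linear below. Colour gives the guides and shape the day. Levels run from MRPS34 at a mean of 1279 TPM down to MRPL23, which is listed at 0 in 2 libraries, and for most genes the 4 symbols lie close together.

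The order of levels was related to gene length in the genome. For 9 members the TPM came out, within 0.0001 read, as whole reads divided by the whole stretch the gene covers in the genome, introns included, so that for them a longer gene receives fewer TPM per read. For the other 68 the listed span did not give whole reads, and the length behind their values was not recovered. Their reads were estimated from the median genomic span of the gene's GENCODE release 29 protein-coding transcripts, which can be much shorter than the listed span. Across the 77 genes, Spearman's rho between mean TPM and listed span was -0.68, and between estimated reads and listed span it was -0.09. Across all genes tested, rho between TPM and span was -0.34. The points share their libraries, and span enters both quantities by construction. MRPL41 spans 677 bases (chr9:137551879-137552555, plus strand) and had 446 TPM from a mean of 42.5 reads. MRPS28 spans 111573 bases and had 2.41 TPM from a mean of 37.7 estimated reads. Ranked by estimated reads, MRPS15 led with 719 per library, followed by MRPL43 with 336, MRPS6 with 265, MRPS24 with 233 and MRPS34 with 228. The median member had 46.7 estimated reads and 63 members had at least 20.

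**Figure D2:**
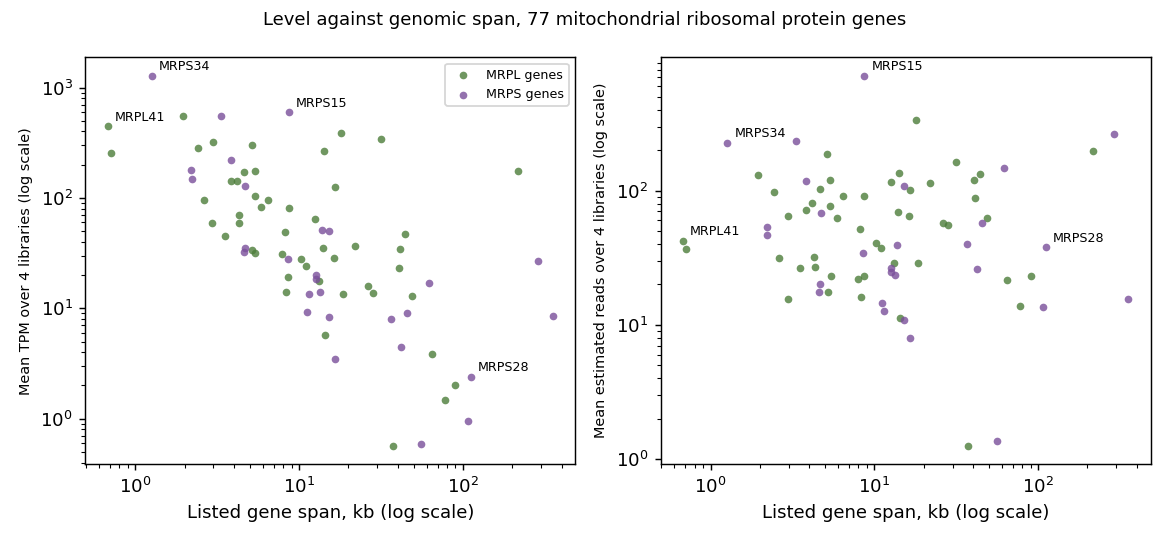
Level against listed gene span (kb, logarithmic) for the 77 genes, with mean TPM on the left and mean estimated reads per library on the right, both on logarithmic axes. Each point is 1 gene, coloured by the subunit in its name. TPM declines with span (rho -0.68) and estimated reads show little relation to it (rho -0.09).

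Within a gene the span cancels, so comparisons between libraries hold for 1 gene at a time unless its transcripts of different span trade places. Across the members, Pearson's r of log2(TPM + 1) between libraries was 0.981 to 0.987 for the 6 pairs. The ratio of the highest to the lowest library had a median of 1.51 over the 76 genes with a value throughout, and over the 6529 tested genes with a value throughout its median was 2.02. Depth differed too, with a median of 46.7 estimated reads for members and 10.7 for all genes tested. Ratios were lowest for MRPL4 at 1.09, MRPL9 at 1.12 and MRPL44 at 1.13. They were highest for MRPL46 at 3.32, MRPS18A at 3.08 and MRPS26 at 2.99. Cytosolic ribosomal protein genes had a median ratio of 1.24 from a median of 741 estimated reads, and nuclear genes of the respiratory chain had 1.32 from 184.

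The genes are scattered. Chromosomes 1, 2 and 17 carry 8 members each and chromosome 11 carries 7. Head-to-head arrangement, in which a listed gene on the opposite strand starts within 1000 bases, was found for 28 of 77 members (36.4%). Among genes tested it was found for 28 of 74 members (37.8%), against 24.8% of 6836 protein-coding genes. Several partners belong to mitochondria or to ribosomes. MRPL36 starts 41 bases from NDUFS6 and MRPL47 starts 41 bases from NDUFB5, both subunits of respiratory complex I. MRPL49 starts 6 bases from FAU, which encodes a cytosolic ribosomal protein, MRPS12 faces SARS2, a mitochondrial seryl-tRNA synthetase, and MRPL43 faces TWNK, the mitochondrial DNA helicase. MRPL46 and MRPS11 are both members and start 63 bases apart on chromosome 15. All these gaps use the starts in the table. The listed start minus that of RefSeq, which is used below, was -1529 bases for MRPL36 and -255 bases for MRPS11. By RefSeq starts these 2 genes thus lie farther from their partners, and MRPL36 falls outside the limit of 1000 bases. MRPL11, counted for PELI3, had a value of -27890 bases and falls outside that limit too. Reads within such pairs ranged from near equal to far apart. Mean estimated reads were 64.5 for MRPL47 beside 61.6 for NDUFB5, 46.7 for MRPS12 beside 46.7 for SARS2, and 22.0 for MRPL46 beside 23.6 for MRPS11. They were 17.6 for MRPL49 beside 686 for FAU, and 336 for MRPL43 beside 2.95 for TWNK. In all, 28 members overlap a listed gene on the opposite strand. Whether counting used strand is not given in the sources used here, so reads of those genes and of their partners cannot be told apart.

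Start regions were taken from RefSeq (GRCh38.p14), which gave a window from 250 bases before to 50 bases after the RefSeq start for 69 of the 77 members. For 50 of them the RefSeq start lies within 100 bases of the start in the table. Each of 5 motifs was searched on both strands. The ETS core CCGGAAG was in 29 of 69 members (42.0%), in 23.2% of 5618 other protein-coding genes averaging 1 TPM or more and in 10.3% of all 35116 windows. The YY1 motif AANATGGCG was in 18 members (26.1%), in 7.97% of the other expressed genes and in 3.19% of all windows. Related families held these motifs too: among nuclear respiratory chain genes ETS was in 29.7% and YY1 in 25.0% of 64 windows, and among cytosolic ribosomal protein genes ETS was in 33.8% and YY1 in 13.2% of 68. The NRF1 motif (GCGC, any base, TGCGC) was in 8 members (11.6%) against 13.4%, the E-box CACGTG in 6 (8.70%) against 10.8%, and the CRE TGACGTCA in 0 of 69 against 3.86%. An ETS match can run into a YY1 match, but no member held such an overlap, and 4 held both motifs apart. Of 20 YY1 matches in members, 16 began after the RefSeq start, a stretch that makes up 16.7% of the window. Of 39 ETS matches, 6 did. Among the other expressed genes, 63.6% of YY1 matches and 15.8% of ETS matches began there. Median GC content was 60.3% in members and 64.7% in the other expressed genes. A match is a description of the letters and not evidence of binding.

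The bases directly before the start are shown for members that the results below turn on, and for MRPL20, which holds a pair of ETS matches. Each is written 5′ to 3′ on the gene's own strand. Capitals mark ETS matches in either orientation and, in MRPL17, the NRF1 match. The interval of MRPL46 lies in the gap between its listed start and that of MRPS11. The intervals are chr20:3045952-3046051 (plus) for MRPS26, chr1:36464385-36464484 (minus) for MRPS15, chr6:42217862-42217961 (minus) for MRPS10, chr11:6683341-6683440 (minus) for MRPL17, chr1:1407294-1407393 (minus) for MRPL20 and chr15:88467391-88467450 (minus) for MRPL46.
MRPS26: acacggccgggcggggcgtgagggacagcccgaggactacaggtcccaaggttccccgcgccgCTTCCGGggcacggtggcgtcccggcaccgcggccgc
MRPS15: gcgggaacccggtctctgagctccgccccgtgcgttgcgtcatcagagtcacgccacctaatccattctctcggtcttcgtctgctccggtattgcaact
MRPS10: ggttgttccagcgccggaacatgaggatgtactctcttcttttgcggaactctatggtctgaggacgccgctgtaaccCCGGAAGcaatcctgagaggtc
MRPL17: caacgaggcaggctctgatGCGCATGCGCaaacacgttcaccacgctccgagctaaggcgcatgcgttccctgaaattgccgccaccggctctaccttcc
MRPL20: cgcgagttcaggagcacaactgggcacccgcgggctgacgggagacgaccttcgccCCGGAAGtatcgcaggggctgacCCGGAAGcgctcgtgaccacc
MRPL46: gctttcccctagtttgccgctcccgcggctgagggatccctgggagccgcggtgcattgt

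Levels did not follow these motifs closely. Members with an ETS match had a median of 69.8 TPM and 54.0 estimated reads, and members without one had 34.8 TPM and 56.5 estimated reads. Members with a YY1 match had a median of 26.0 TPM and 58.8 estimated reads, and those without had 50.6 TPM and 54.0.

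Between the guide arms, no member passed the threshold. The summed level of the family was 9398 and 9206 TPM with the SNHG26 guides and 8919 and 7814 TPM with control guides. The arms did not overlap, with means of 9302 ± 136 and 8366 ± 782 TPM (SD, n = 2 per arm). With 2 libraries against 2, the two-sided exact permutation p was 0.333, which is the smallest such a design allows. The difference of 936 TPM was 383 TPM without the control library of day 3 and 1489 TPM without that of day 2. Grouped by name, the MRPL genes summed to 5693, 5423, 5370 and 4985 TPM, and the MRPS genes to 3705, 3783, 3549 and 2829 TPM. These groups are not the subunits themselves, since MRPS18A and MRPS30 belong to the large subunit and proteins with other names are left out. The ratio of the MRPL to the MRPS sum was 1.54, 1.43, 1.51 and 1.76, so the arms overlapped in that ratio. The control library of day 3 was lowest on both sums and lay farther from the others on the MRPS sum. In bulk libraries, fewer cells of a type and less RNA per cell cannot be told apart.

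Limma was run on log2(TPM + 1) over all genes averaging 1 TPM or more, and called a gene at a Benjamini-Hochberg adjusted p under 0.05. Between the guide arms it called 0 of 74 members, and over all genes it called 0 of 8274 (0.0%). The smallest adjusted p was 0.935 among members and 0.0917 among all genes. At an unadjusted p under 0.05 there were 0 members and 337 of 8274 genes (4.07%). The median log2 difference of the members was 0.10, against 0.04 for all genes tested, and 47 of 74 (63.5%) were above 0, against 53.3% of all genes. On day 2 the median was -0.03 and on day 3 it was 0.20, against 0.03 for all genes on day 3. Without the control library of day 3, the median of the members was -0.0018.

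In 24 of 74 members (32.4%) both SNHG26 libraries lay above both controls, against 16.1% of all genes tested. In 9 members (12.2%) both lay below, against 13.2%. Among members with at least 20 estimated reads, 23 of 63 lay above (36.5%, against 21.1% of 2751 genes) and 3 of 63 below (4.76%, against 11.3%), so 6 of the 9 members below had fewer reads than that. Log2 differences of the 24 ranged from 0.10 for MRPL9 to 0.84 for MRPL19. They included 15 MRPL and 9 MRPS genes, among them MRPS34, MRPS24, MRPL36, MRPL52 and MRPS16 of the more abundant members. When libraries were rescaled by quantile normalization or by median ratios, 19 members lay above both controls, against 15.4% and 14.0% of all genes.

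By the rule for naming, which ranks members by the smaller of their differences on the 2 days, MRPS10, MRPL19, MRPL38 and MRPL22 led upward. MRPS10, a protein of the small subunit head, had 10.5, 12.4, 6.54 and 7.29 TPM. Its arm means were 11.5 ± 1.31 and 6.91 ± 0.53 TPM (SD, n = 2), and its log2 difference was 0.65 (SE 0.30, limma adjusted p 0.935). It rested on a mean of 14.5 estimated reads. MRPL19, a large subunit protein with a bacterial counterpart, had 58.2, 60.5, 23.9 and 44.4 TPM. The SNHG26 libraries were close to each other and the control libraries far apart, with a log2 difference of 0.84 (SE 0.37, limma adjusted p 0.935) that ran from 0.41 without the control library of day 2 to 1.28 without that of day 3. MRPL38, of the central protuberance, had 123, 101, 86.3 and 75.7 TPM and a log2 difference of 0.46 (SE 0.22, limma adjusted p 0.935). MRPL22, near the exit of the peptide tunnel, had 16.2, 16.6, 10.0 and 12.2 TPM and a log2 difference of 0.53 (SE 0.28, limma adjusted p 0.935). In these 4 genes every SNHG26 library lay above every control, a separation that the rule for naming favours.

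Downward, the rule named MRPL10, MRPS22, MRPL17 and MRPS23, all with few reads. MRPL10, which anchors the stalk of the large subunit, had 10.6, 12.7, 14.6 and 18.5 TPM and a log2 difference of -0.47 (SE 0.30, limma adjusted p 0.935). MRPS22, a mitochondria-specific small subunit protein, had 8.18, 6.88, 10.3 and 8.89 TPM and a difference of -0.31 (SE 0.30, limma adjusted p 0.941). MRPL17, at the exit of the tunnel, had 58.7, 43.7, 72.3 and 61.3 TPM and a difference of -0.39 (SE 0.27, limma adjusted p 0.935). The arms of these genes did not overlap, which the rule for naming favours. Mean estimated reads were 15.5 for MRPS22 and 15.6 for MRPL17, and MRPL10 had 11.7, 15.6, 14.6 and 22.2. MRPS23, another mitochondria-specific protein of the small subunit, had 6.04, 6.99, 11.9 and 8.63 TPM and a difference of -0.57 (SE 0.33, limma adjusted p 0.935) from a mean of 10.8 estimated reads. With 1 library left out, these differences ran from -0.63 to -0.31 for MRPL10, from -0.42 to -0.20 for MRPS22, from -0.60 to -0.18 for MRPL17 and from -0.78 to -0.36 for MRPS23. The value nearest 0 came without the control library of day 3 for MRPL10, without the SNHG26 library of day 3 for MRPS22 and MRPL17, and without the control library of day 2 for MRPS23.

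The lowest unadjusted p among members was that of MRPS34 (0.0601 by limma, adjusted 0.935). Its levels in the SNHG26 libraries were above both controls, and its log2 difference was 0.16 on day 2 and 0.57 on day 3. MRPL36 had 415, 325, 286 and 249 TPM. NDUFS6, whose listed start lies 41 bases from that of MRPL36 on the other strand, had 133, 115, 99.9 and 91.3 TPM. In both genes each SNHG26 library was above each control.

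**Figure D3:**
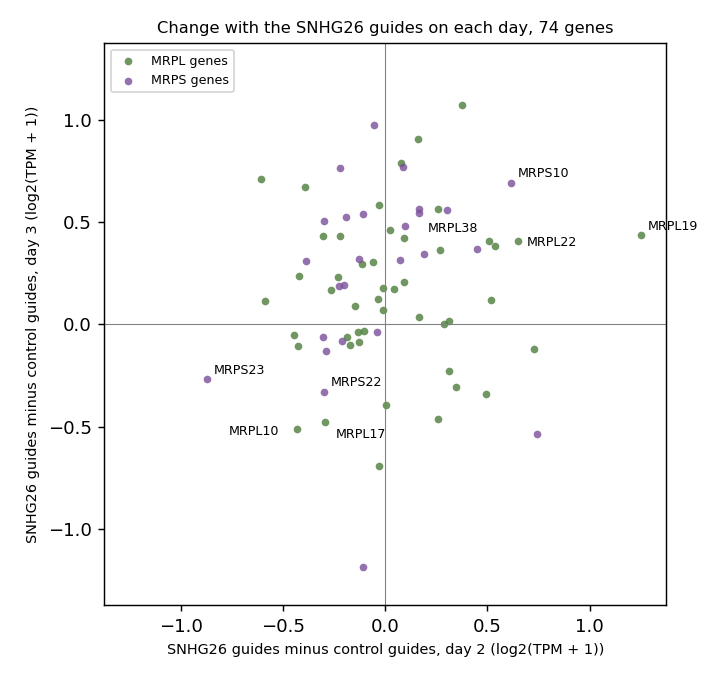
Log2(TPM + 1) difference between SNHG26 guides and control guides for the 74 genes tested, on day 2 (horizontal) and day 3 (vertical). Each point is 1 gene and the 8 named genes are labelled. Points are spread over all 4 quadrants, with 26 genes higher on both days and 17 lower on both days.

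On both days, 26 members (35.1%) were higher with the SNHG26 guides, against 24.8% of all genes, and 17 (23.0%) were lower, against 21.8%. Each day's difference comes from 1 library per arm. A crossed contrast in limma, which tests whether the guide difference was unequal on the 2 days, called 8 of 8274 genes (0.0967%) and 0 of 74 members, whose smallest adjusted p was 0.961. At an unadjusted p under 0.05 that contrast held 0 members and 291 genes (3.52%).

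By role, the lists divided as follows between the guide arms, with no gene called in any. All 3 genes of the stalk, which recruits translation factors, had differences below 0, from -0.47 for MRPL10 to -0.07 for MRPL11. MRPL12, the stalk protein itself, had 88, 73, 91 and 74 whole reads, or 155, 115, 176 and 120 TPM. Around the exit tunnel, where the ribosome meets the inner membrane, 4 of 6 tested genes were above 0. MRPL45, which contacts the membrane, had 17.6, 14.8, 19.1 and 11.9 TPM, and MRPL44, a protein with an RNase III fold, had 37, 43, 38 and 45 whole reads. The central protuberance, where the subunits meet above the tRNAs, had 3 of 5 genes above 0, with MRPL46 at 0.73 (SE 0.55) and MRPL38 at 0.46. The list of mitochondria-specific small subunit proteins, in which the paralogue MRPS18B was also placed, had 8 tested genes. Of these, 4 were above 0 and 4 below, from -0.57 for MRPS23 to 0.41 for MRPS33, which had 24.9, 21.2, 17.9 and 16.2 TPM. MRPS35 had 8.77, 10.9, 10.4 and 5.99 TPM and MRPS31 had 4.44, 3.66, 5.66 and 4.09 TPM. Along the mRNA path of the small subunit, MRPS7, MRPS11 and MRPS12 were above 0 and MRPS5 below. MRPS12, whose bacterial counterpart lines the decoding centre, had 149, 196, 155 and 99.4 TPM, with overlapping arms. MRPL58, a peptidyl-tRNA hydrolase built into the large subunit that releases stalled peptides, had 24, 22, 24 and 22 whole reads.

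The MRPS18 paralogues occupy different places, with MRPS18A in the large subunit despite its name and MRPS18B and MRPS18C in the small one. MRPS18C was highest at 48.8, 48.6, 56.6 and 51.5 TPM, followed by MRPS18B at 21.3, 34.4, 28.2 and 27.5 TPM and MRPS18A at 3.52, 1.57, 3.87 and 4.86 TPM. Their order was the same in every library. MRPS18A rested on 8, 4, 8 and 12 whole reads, whose exact 95% Poisson intervals ran from 1.09 to 10.2 for the lowest and from 6.20 to 21.0 for the highest, so its order across libraries was not resolved. MRPS30, the other large subunit protein with an S name, had 12.2, 15.9, 13.5 and 12.5 TPM.

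**Figure D4:**
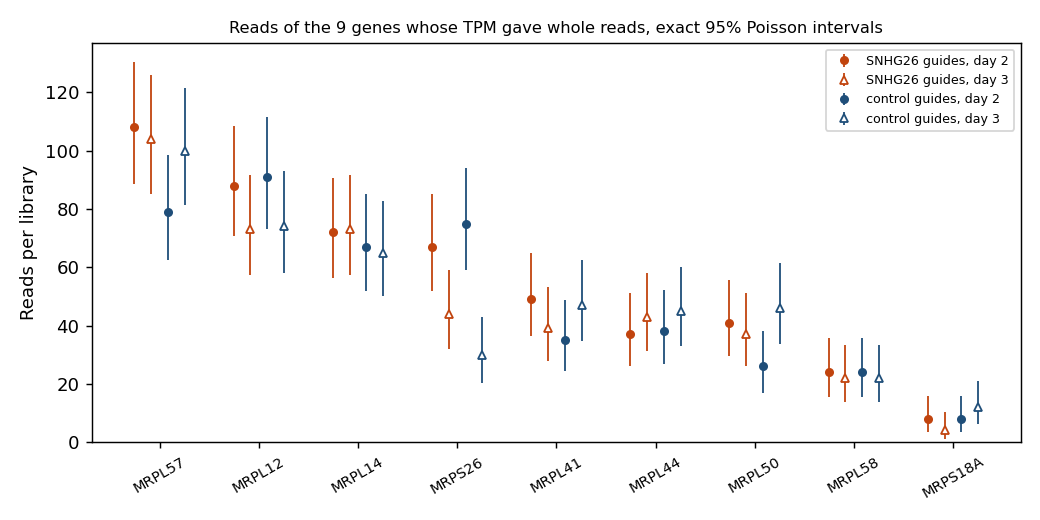
Reads per library for the 9 genes whose TPM came out as whole reads, with exact 95% Poisson intervals that cover counting error only, since amplified reads without molecular identifiers are not independent molecules. Colour gives the guides and symbol the day. Reads are not scaled to depth. MRPS26 has 67 and 75 reads on day 2 and 44 and 30 on day 3, and for the other genes the intervals of all libraries overlap.

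Between the days, again no member passed the threshold. Limma called 0 of 74 members and 3 of 8274 genes (0.0363%). At an unadjusted p under 0.05 there were 3 members (4.05%), namely MRPS15, MRPS26 and MRPL12, against 6.61% of all genes. The median log2 difference of day 3 from day 2 was -0.07 over the members and 0.01 over all genes tested, with 43 of 74 members (58.1%) below 0 against 49.3% of all genes. Without the control library of day 3 the members' median was -0.0035, and without the SNHG26 library of day 3 it was -0.13. By arm the median was 0.03 with the SNHG26 guides and -0.19 with control guides. Summed TPM averaged 9159 on day 2 and 8510 on day 3, and the days overlapped (exact two-sided permutation p = 0.667). Both day 3 libraries lay below both day 2 libraries in 15 members (20.3%, against 18.4% of all genes) and above them in 4 (5.41%, against 17.1%). After quantile normalization 19 members lay below (25.7%, against 19.6%), and after scaling by median ratios 20 did (27%, against 18.8%). Among members with at least 20 estimated reads, 14 of 63 were below (22.2%, against 20.4%) and 4 above (6.35%, against 19.4%). The 4 were MRPL43, MRPL28, MRPL42 and MRPS5. In both arms, 23 members (31.1%, against 24.8%) were lower on day 3 and 11 (14.9%, against 24.3%) were higher.

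MRPS15 had 708 and 728 TPM on day 2 and 465 and 477 TPM on day 3. In estimated reads this was 846 and 790 on day 2, and 621 and 619 on day 3, in libraries that were deeper on day 3. Day means were 718 ± 14.4 and 471 ± 8.26 TPM (SD, n = 2), so the gap between days was far wider than the gap between arms. The log2 difference was -0.61 (SE 0.11) with an unadjusted p of 0.00564 and a limma adjusted p of 0.344. It ran from -0.63 to -0.59 when any 1 library was left out. The p depended on the fit. With limma's eBayes run without a trend, the unadjusted p was 0.0742 for MRPS15 and 0.0291 for MRPS26. In that fit 1 member, in place of 3, was under 0.05. The 100 bases shown for its start held none of the 5 motifs.

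MRPS26, a mitochondria-specific small subunit protein, had 222 and 274 TPM on day 2 and 131 and 91.6 TPM on day 3. It came out as 67 reads (exact 95% Poisson interval 51.9 to 85.1) and 75 reads (59.0 to 94.0) on day 2, and as 44 reads (32.0 to 59.1) and 30 reads (20.2 to 42.8) on day 3. The log2 difference was -1.17 (SE 0.25) with a limma adjusted p of 0.455. It was -0.76 with the SNHG26 guides and -1.57 with control guides, each from a single pair of libraries.

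MRPL46, of the central protuberance, had 45.2 and 34.5 TPM on day 2 and 29.7 and 13.6 TPM on day 3, with a log2 difference of -0.94 (SE 0.45, limma adjusted p 0.760). That difference was -0.40 without the control library of day 3 and -1.47 without the SNHG26 library of day 3. MRPS11, whose listed start lies 63 bases from that of MRPL46, had 17.0, 11.7, 9.76 and 17.4 TPM. Its 2 arms went opposite ways between days, and its mean difference was 0.13 (SE 0.40, limma adjusted p 0.954). MRPL12 had 165 ± 15.2 TPM on day 2 and 117 ± 3.44 TPM on day 3 (SD, n = 2), with a log2 difference of -0.49 (SE 0.16, limma adjusted p 0.717). The other stalk genes were at -0.29 (MRPL11) and 0.28 (MRPL10).

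Upward, MRPS5, at the mRNA entrance of the small subunit, had 5.82 and 7.43 TPM on day 2 and 9.24 and 9.69 TPM on day 3, with a log2 difference of 0.46 (SE 0.27, limma adjusted p 0.760). MRPL10 and MRPS10 came next by the rule, at 0.28 (SE 0.33) and 0.18 (SE 0.41). The days overlapped in both genes. With 1 library left out, the difference of MRPL10 ran from 0.03 to 0.54, lowest without the control library of day 3, and that of MRPS10 turned to -0.17 without the SNHG26 library of day 3 and to -0.13 without the control library of day 2.

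**Figure D5:**
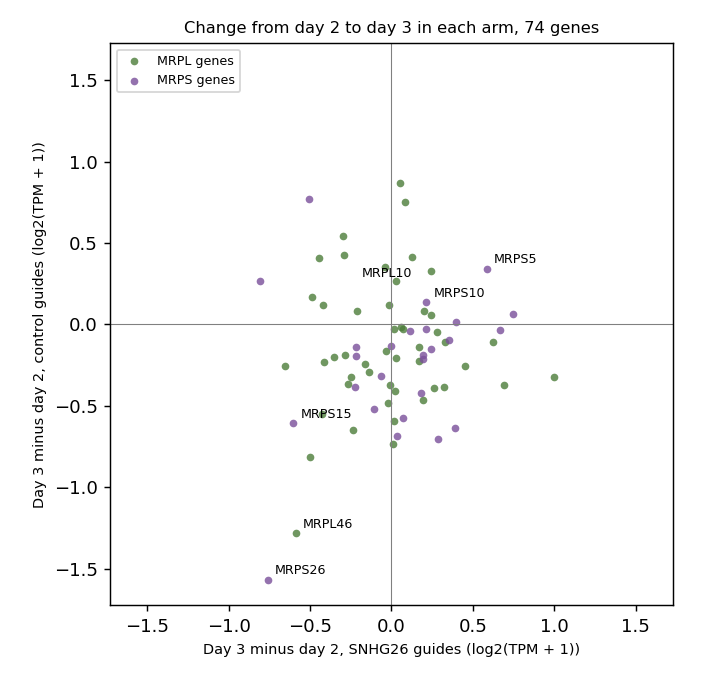
Log2(TPM + 1) difference of day 3 from day 2 for the 74 genes tested, with SNHG26 guides (horizontal) and control guides (vertical). Each point is 1 gene and the 6 named genes are labelled. MRPS26, MRPL46 and MRPS15 lie at the lower left, below 0 in both arms, and 43 of 74 genes have a mean below 0.

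Other parts of the mitochondrial translation system were set beside these genes. Of 5 mitochondrial ribosomal proteins that carry other names, all were tested and none was called. AURKAIP1 was the most abundant at 665, 987, 728 and 682 TPM. CHCHD1 had 219, 145, 208 and 143 TPM, so both day 3 libraries lay below both day 2 libraries, with a log2 difference of -0.56 (SE 0.14, limma adjusted p 0.556). GADD45GIP1 was at 39.1, 25.5, 39.1 and 45.8 TPM, PTCD3 at 9.28, 9.95, 15.6 and 9.77 TPM and DAP3, a GTP-binding small subunit protein, at 2.38, 2.58, 1.92 and 5.32 TPM. Of 27 assembly factors, 25 were tested, and 0 were called between guide arms or days, with median differences of -0.01 and -0.23. The most abundant were RPUSD3, a pseudouridine synthase, at 83.6 TPM and ERAL1, a GTPase that binds the small subunit RNA, at 56.1 TPM. Of 14 translation factors and related proteins, 12 were tested and 0 were called, led by SLIRP, which stabilises mitochondrial messages, at 848 TPM and TUFM, the elongation factor Tu of mitochondria, at 245 TPM.

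Neighbouring families gave a frame for the median guide difference of 0.10. It was 0.11 for the 85 cytosolic ribosomal protein genes tested, 0.12 for 78 nuclear genes of the respiratory chain and -0.33 for the 13 mitochondrially encoded messages, all of which had differences below 0. Both SNHG26 libraries lay above both controls for 33 of 85, 24 of 78 and 0 of 13 of these genes, against 16.1% of all 8274 genes tested. They lay below both controls for 2, 2 and 10, against 13.2% of all genes tested. On a day basis the medians were 0.06, 0.10 and -0.06, against -0.07 for the mitochondrial ribosomal protein genes. None of these genes was called in either comparison, the families share the same 4 libraries, and the differences between families were not tested.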

How the data were processed

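Gene-level TPM values were deposited by the authors in 1 table, with a column for each library. Reads were aligned to GRCh38 with minimap2 2.24-r1122, per the submitters' processing notes, and cDNA was amplified for 14 cycles, per the labels' protocols. The counting tool, its annotation and its use of strand are not given in the sources used here. From the deposited TPM, the value of 1 read times the span was recovered in each library (1 read on 10 kb is worth 0.653 to 0.803 TPM), and genes whose values were whole reads within 0.0001 read in all libraries were called whole. Depth sets the precision, and intervals cover counting error only.

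Libraries were grouped by the guides in the labels, which do not say whether they came from separate cultures, so p-values measure the spread between these libraries. That spread includes the days in the guide comparison, the arms in the day comparison and both in the crossed contrast. Limma 3.58.1 (R 4.3.3; lmFit, eBayes with trend) was run on log2(TPM + 1), a scale that understates the change of low genes, for genes averaging 1 TPM or more. It was tested on simulated data whose reads were set from listed spans, which can overstate those of members. That test therefore does not speak to results at the depth of the members. Exact permutation tests went through every split of the 4 libraries, in Python 3.11.15. Alternatives were a replicate block, each library left out in turn, eBayes without a trend, scaling by quantiles or by median ratios, filtering at 5 TPM or not at all, and a pseudocount of 0.1 or 5. Named genes were the 5 highest and 5 lowest in level, 4 each way by guide difference and 3 each way by day difference (alike on both days or arms, ranked by the smaller), role lists, and genes listed at 0. Others named were chosen after their values were seen. Members and lists were chosen with earlier results of these data known. Gene names in the table were used as given.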

Additional observations from a re-analysis of the deposited data

Results flagged for a closer look

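The guide change differed between day 2 and day 3 for 8 genes by limma's crossed contrast (adjusted p under 0.05, of 8274 tested). None of the 8 was a mitochondrial ribosomal protein gene. With 1 library per arm and day, this contrast cannot be told apart from the spread between single libraries.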

How the results depend on the processing

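Between the guide arms, 0 genes were called under all 12 alternatives, the replicate block included, and no member was called in any fit of either comparison (smallest adjusted p 0.294 for guides and 0.265 for days). Same-day libraries of the arms deviated from their arm means with a correlation of 0.046 over 8274 genes and 0.128 over the 74 members, and with only 2 pairs the shared day number was not taken to pair them. Under the replicate block, the day comparison called 0 genes in place of 3 and the median guide difference stayed at 0.0989. The day comparison also called 0 genes with pseudocounts of 0.1 and 5, without a filter, with quantile normalization, without a trend, and with each library left out (0 to 0). The crossed contrast, 8 genes as reported, called 14 with a pseudocount of 0.1, 13 among genes averaging 5 TPM or more, and 0 with a pseudocount of 5, without a filter or without a trend. The cause was not tested. The median guide difference was 0.0471 with quantile normalization and 0.0498 with median ratios, and -0.0018 to 0.156 with 1 library left out. The median day difference was -0.134 to -0.0035 with 1 library left out. The summed guide difference of 936 TPM was 632 with median ratios and 383 to 1489 with 1 library left out, lowest without the control library of day 3. The day difference of MRPS10 turned to -0.17 without the SNHG26 library of day 3 and to -0.13 without the control library of day 2, within a range of -0.17 to 0.52. Members above both controls numbered 28 to 41 with 1 library left out, when 30.2% to 35.1% of all genes met the looser condition, and members below both day 2 libraries numbered 22 to 39 (29.3% to 34.8%). The sign of the guide difference was kept in 67 of 74 members under the scaling and fit alternatives and in 38 with each library left out. For days these counts were 73 and 31. Fewer than 20 estimated reads lay behind 14 of the 77 members.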

Other observations

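The table lists 15 other genes whose names begin like those of the members and that are not protein-coding. Of these, 10 are processed pseudogenes, intronless copies of a member's message. Every pseudogene value came out as whole reads, with at most 3 reads in any library. MRPS16P2 had 1, 3, 1 and 3 reads (SNHG26 day 2, SNHG26 day 3, control day 2, control day 3), beside 112, 164, 90.5 and 109 estimated reads for MRPS16. Because the copies are short, these reads gave 17.9 to 49.4 TPM. How the counting divided reads between members and their copies is not given in the sources used here. MRPL20-AS1, a long non-coding RNA gene opposite MRPL20, was listed at 25.5, 33.1, 21.9 and 23.4 TPM, beside 170, 213, 167 and 155 TPM for MRPL20.

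Partners across a shared start region differed from members in several pairs. NCAPD2, a condensin subunit that starts 485 bases from MRPL51, had 5.78, 16.3, 5.99 and 22.1 TPM, higher on day 3 in both arms, while MRPL51 had 592, 529, 596 and 504 TPM. TCP1, a chaperonin subunit that starts 109 bases from MRPL18, had 91.9, 75.6, 99.2 and 83.9 TPM beside 81.4, 80.2, 95.8 and 68.3 TPM for MRPL18. For both TCP1 and MRPL18 each day 3 library lay below each day 2 library. LRPPRC, a partner protein of SLIRP on mitochondrial messages, had 3.86 TPM in the SNHG26 library of day 2 and 28.7, 19.3 and 25.9 TPM in the others. RBFA, an assembly factor of the small subunit, had 6.30, 5.96, 11.1 and 16.3 TPM, with a log2 guide difference of -1.02 (SE 0.34, limma adjusted p 0.935), and was the only gene of the assembly list with an unadjusted p under 0.05 between the guide arms. These genes were chosen after their values were seen.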
